A study of Mus musculus with 6 samples.

Results

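Tbx3, Tfcp2l1, Prdm14, Gbx2 and Zfp57 are 5 genes for transcriptional and chromatin regulators of naive mouse embryonic stem cells. They were followed here after knockdown of p/CIP, the nuclear receptor coactivator encoded by Ncoa3. Their probe sets were found by exact gene symbol in the platform annotation, out of 19938 genes measured by probe sets with a single symbol. The 5 genes were chosen with earlier results of these data known. Each was measured by 1 probe set, so no choice between probe sets of a gene had to be made. The cells were E14, an established line derived from a mouse blastocyst, grown on adherent plates and with no other alteration stated. Each of the 3 groups had 2 arrays: cells transfected with p/CIP siRNA 1, cells transfected with p/CIP siRNA 2, and control cells given pooled non-specific siRNAs. The labels give no time after transfection. Nor do they say whether replicates were separate cultures, so each p-value reflects array to array spread that may be technical.

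The naive state is the condition of the preimplantation epiblast, which embryonic stem cells keep in culture while the cytokine LIF acts through STAT3 and differentiation signals from FGF are held in check. TBX3 is a T-box factor that acts with the LIF and PI3K branches of this network and, at high level, favours primitive endoderm. TFCP2L1, a CP2-family factor, and GBX2, a homeodomain factor, are both induced by STAT3 and can each sustain self-renewal. PRDM14 is a zinc finger protein that works with CBFA2T2 and Polycomb proteins to hold down FGF receptor and de novo DNA methyltransferase genes, and it is also needed for germ cell specification. ZFP57 is a KRAB zinc finger protein that recruits TRIM28 and SETDB1 to imprinted regions and so keeps their methylation.

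Values are the deposited array values, taken as log2 from their range of 2.69 to 14.6, and a change is a difference of group means on that scale. Array medians lay between 7.77 and 7.84. Array siRNA 1 replicate 2 stood apart with an interquartile range of 3.13, against 3.33 to 3.45 on the other arrays. Ncoa3 checked the labels: it fell by 1.49 on the log2 scale with both siRNAs pooled (limma adjusted p = 0.0287), and it differed between siRNA 2 and siRNA 1 by 0.00 (95% interval -0.27 to 0.26). Over all genes 14 were called lower and 0 higher with both siRNAs pooled, and 0 in either direction when any 1 control array or any 1 siRNA 2 array was left out. All 10 measured stem cell markers read above the median gene level of 7.81 on every array. Of 9 fibroblast feeder markers 2 did so. The same held for 17 of 17 primed epiblast, 10 of 12 primordial germ cell and 9 of 10 trophoblast markers. It held for 6 of 15 primitive endoderm and 3 of 9 neural and mesoderm markers. Reading above the median thus does not separate stem cells from primed or trophoblast cells. In bulk RNA, fewer cells of a type and less RNA per cell cannot be told apart.

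After p/CIP knockdown, Tbx3 fell, and it was the only member of the 5 to pass the test over all genes. All 5 had a mean below control for both siRNAs pooled, with log2 changes from -0.91 to -0.19 and a median of -0.33, beside a median of 0.007 and 47.7% of changes below 0 over all 19938 genes. A call here means a limma adjusted p under 0.05 over all genes; 1 of 5 members was called lower and 0 higher, and 0.0702% of all genes were called lower. On all 4 knockdown arrays together, all 5 members read lower than on both control arrays, as did 10.1% of all genes. For Gbx2 the gap was only 4e-04 log2 units. At an unadjusted p under 0.05, 5 of 5 members were lower, against 4.86% of all genes. Because the members were chosen with earlier results of these data known, these counts are no independent test of them.

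**Figure D1:**
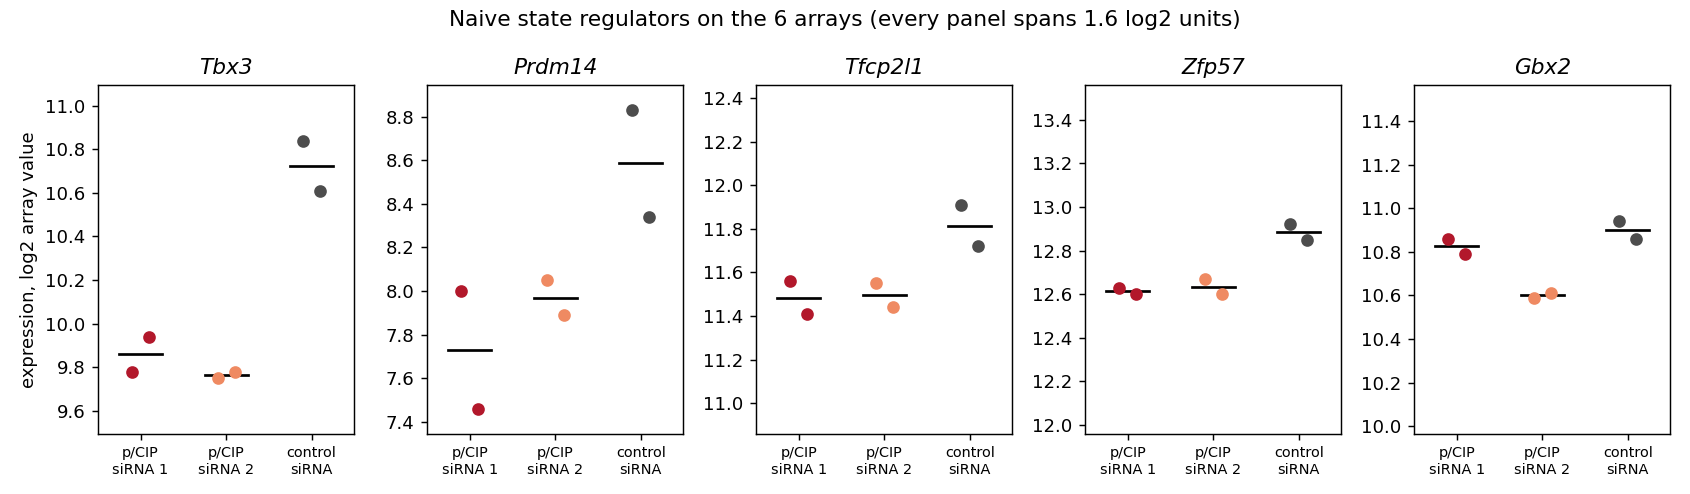
Each panel plots the log2 array value of a regulator on the 6 arrays; points are arrays, bars are means of 2 arrays, and every panel spans the same range. Tbx3 and Prdm14 sit furthest below control, while siRNA 1 and control lie next to each other for Gbx2.

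Tbx3 had the clearest separation. It read 9.78 and 9.94 with siRNA 1, 9.75 and 9.78 with siRNA 2, and 10.84 and 10.61 in control cells. The highest knockdown array thus lay 0.672 log2 units below the lowest control array, while arrays of a group differed by at most 0.23. With both siRNAs pooled the change was -0.91 (standard error 0.0926, adjusted p = 0.0388), which left 53.1% of the control level. That placed Tbx3 at rank 12 of 19938 genes counted from the most lowered, where Ncoa3 was at rank 1. With siRNA 1 the change was -0.87 (95% interval -1.12 to -0.62, adjusted p = 0.0688, and 0.0328 with the replicate number as a block). With siRNA 2 it was -0.96 (-1.21 to -0.70, adjusted p = 0.0915, and 0.0523 with the block). From low to high the groups ran siRNA 2, siRNA 1 and control. The siRNA groups did not differ beyond their spread (siRNA 2 minus siRNA 1 -0.09, 95% interval -0.34 to 0.17, adjusted p = 0.832).

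The size of the Tbx3 change held better than its call. Between arrays of replicate 1 it was -1.08, and between those of replicate 2 it was -0.75. Leaving out any 1 array gave -1.03 to -0.80. With a control array left out the adjusted p was 0.784 (replicate 1) or 0.248 (replicate 2), and with a siRNA 2 array left out it was 0.224 (replicate 1) or 0.233 (replicate 2). It was 0.0295 when the array that stood apart, siRNA 1 replicate 2, was left out.

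Prdm14 had the next largest change and by far the widest spread. Its values were 8.0 and 7.46 with siRNA 1, 8.05 and 7.89 with siRNA 2, and 8.83 and 8.34 in control cells. Prdm14 was thus read near the median gene level of 7.81, with a siRNA 1 mean of 7.73 below it. Tbx3, Tfcp2l1, Gbx2 and Zfp57 read 9.75 or more on every array. Both control arrays were above all knockdown arrays, by at least 0.288, yet the control arrays themselves lay 0.49 apart and those of siRNA 1 lay 0.54 apart. The standard deviation within groups was 0.305, larger than that of 98.6% of genes, where the median over all genes was 0.1. Pooled, the change was -0.73 (standard error 0.186, 95% interval -1.17 to -0.29, adjusted p = 0.316), 60.3% of control and rank 34 from the most lowered. The change was -0.85 with siRNA 1 (adjusted p = 0.237, and 0.035 with the replicate block, which calls it lower) and -0.61 with siRNA 2 (adjusted p = 0.805, and 0.151 with the block). Array siRNA 1 replicate 2 held the lowest value. Without it the change with siRNA 1 was -0.58. Without siRNA 1 replicate 1 it was -1.12, where siRNA 1 was represented only by replicate 2, the array that stood apart. Without control replicate 1 the change was -0.49 pooled and -0.37 with siRNA 2, and without control replicate 2 it was -0.98 pooled and -0.86 with siRNA 2. The group order from low to high was siRNA 1, siRNA 2, control. The difference of 0.24 between siRNA 2 and siRNA 1 was within the spread (95% interval -0.27 to 0.75, adjusted p = 0.779).

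Replicate 2 read lower than replicate 1 for Prdm14 in each of the 3 groups. Within replicate 1 the arrays gave -0.82 for siRNA 1 and -0.78 for siRNA 2 against control, and within replicate 2 they gave -0.88 and -0.45. The labels also carry a running array code, and the 3 lower and 3 higher codes each hold 1 array of every group. Between arrays of the lower codes the pooled Prdm14 change was -1.07, and between those of the higher codes it was -0.39; for Tbx3 these were -1.0 and -0.83. With the code as a block, the limma adjusted p for Prdm14 with siRNA 1 was 0.486. Neither the labels nor the table say what the code stands for.

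Tfcp2l1 showed a smaller difference of nearly equal size with both siRNAs. It read 11.56 and 11.41 with siRNA 1, 11.55 and 11.44 with siRNA 2, and 11.91 and 11.72 in control cells. The 4 knockdown values lay within 0.14 of each other and the lowest control value was 0.165 above the highest of them. The pooled change was -0.33 (standard error 0.0897, 95% interval -0.54 to -0.12), or 79.6% of control, at rank 387 from the most lowered, and it did not pass over all genes (adjusted p = 0.349). The change was -0.33 with siRNA 1 and -0.32 with siRNA 2. Their difference was 0.01 (95% interval -0.24 to 0.26), so the siRNA groups were neighbours with no separation.

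The promoter of Tfcp2l1 is shown as the stretch just before the transcript start. A promoter window of 250 bases before to 50 bases after the start was present for 3 of the 5 members in the RefSeq table of build GRCm38.p6, with 1 window each for Tfcp2l1 and Gbx2 and 3 for Zfp57. The windows of 300 bases were searched on both strands for 6 motifs, with matches in capitals: AGGTCA (nuclear receptor core site), TCAAGGTCA (extended site of the ESRRB type, which contains the core site), TTCNNNGAA (STAT site), AGGTGTGA (T-box site), ATGCAAAT (POU octamer) and TGCCGC (Zfp57 hexamer). The 250 bases before the start of Tfcp2l1 at chr1:118627695-118627944 (+ strand) held no match, and TGCCGC stood once after the start.
Tfcp2l1: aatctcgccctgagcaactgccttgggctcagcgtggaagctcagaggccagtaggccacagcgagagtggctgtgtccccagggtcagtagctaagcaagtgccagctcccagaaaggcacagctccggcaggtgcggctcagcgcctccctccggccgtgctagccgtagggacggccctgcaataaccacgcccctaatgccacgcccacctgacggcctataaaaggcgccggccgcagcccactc

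Gbx2 was the member whose siRNA groups stood furthest apart for their spread. It read 10.86 and 10.79 with siRNA 1, 10.59 and 10.61 with siRNA 2, and 10.94 and 10.86 in control cells. The siRNA 1 arrays nearly touched the control arrays, while the siRNA 2 arrays lay 0.183 below the lower siRNA 1 array. The change was -0.08 with siRNA 1 (95% interval -0.27 to 0.11, adjusted p = 0.671) and -0.30 with siRNA 2 (95% interval -0.49 to -0.12, unadjusted p = 0.00679, adjusted p = 0.597). For both pooled it was -0.19 (standard error 0.069, adjusted p = 0.513), 87.6% of control and rank 1359 from the most lowered. The difference itself, siRNA 2 minus siRNA 1, was -0.23 (95% interval -0.42 to -0.04) with an unadjusted p of 0.0253 and an adjusted p of 0.696, so it did not pass over all genes. Gbx2 was the 1 member of 5 without overlap between the siRNA groups, where 20% of all genes lay lower with siRNA 2 in that way.

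The 250 bases before the Gbx2 start, at chr1:89931177-89931426 (- strand), are shown for comparison with Tfcp2l1, the other STAT3-induced member. None of the 6 motifs was in the Gbx2 window, nor was TTCNNNGAA in the Tfcp2l1 window; 8.3% of 32851 RefSeq windows held TTCNNNGAA.
Gbx2: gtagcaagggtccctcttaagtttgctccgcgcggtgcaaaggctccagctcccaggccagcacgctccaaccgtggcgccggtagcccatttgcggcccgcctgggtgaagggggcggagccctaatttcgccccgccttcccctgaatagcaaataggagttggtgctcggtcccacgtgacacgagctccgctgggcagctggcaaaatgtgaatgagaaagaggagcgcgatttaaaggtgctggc

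Zfp57 had the smallest spread of the 5 and a small, even difference. It read 12.63 and 12.60 with siRNA 1, 12.67 and 12.60 with siRNA 2, and 12.92 and 12.85 in control cells. The standard deviation within groups was 0.0443, below that of most genes (12.1% had a smaller one), and the knockdown arrays were at least 0.176 below both controls. The pooled change was -0.26 (standard error 0.0688, 95% interval -0.42 to -0.10), 83.5% of control and rank 697, with an adjusted p of 0.336. It was -0.27 with siRNA 1 and -0.25 with siRNA 2, and siRNA 2 minus siRNA 1 was 0.02 (95% interval -0.16 to 0.21). Between arrays of a replicate number the pooled difference was -0.27 and -0.25.

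Of the 3 Zfp57 windows, 2 held AGGTCA, as did 16.3% of all windows. The match before a start lay 138 bases upstream of the start at position 37003666 of chromosome 17, and the 30 bases around it, chr17:37003516-37003545 (+ strand), show it in capitals.
Zfp57: aggtaatcgtctAGGTCAccacgcatcttt
The other match lay after its start. The remaining motifs were in 0 of the 3 Zfp57 windows, and over all windows their shares were 0.423% for TCAAGGTCA, 1.28% for AGGTGTGA, 1.74% for ATGCAAAT and 11.6% for TGCCGC. A match or its absence describes only the letters of a window.

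**Figure D2:**
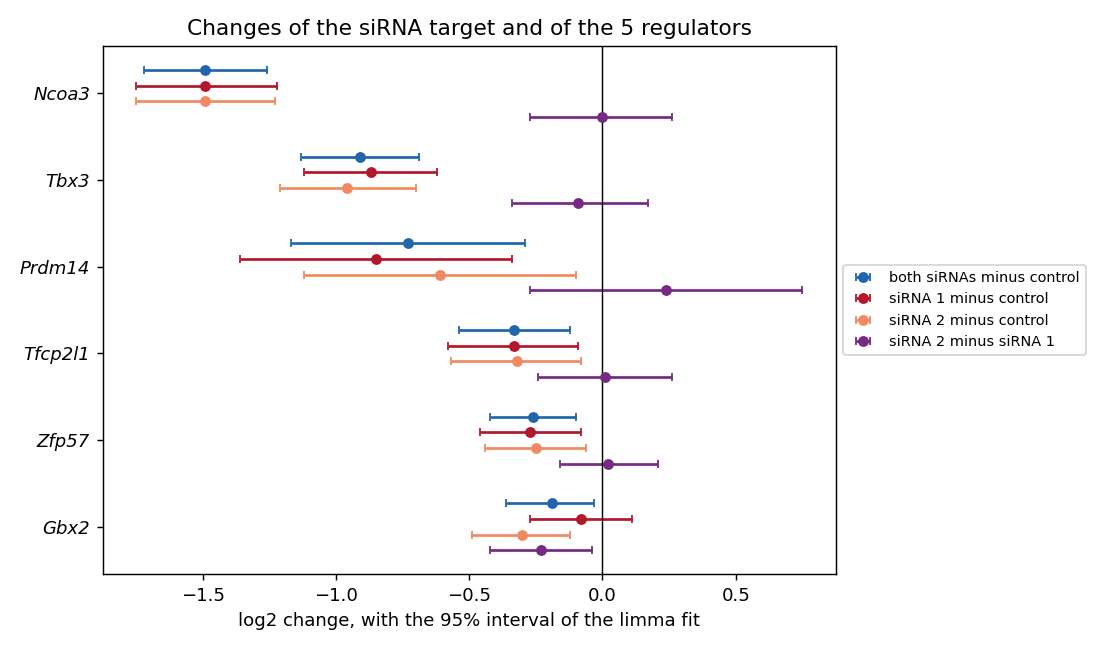
Points are log2 changes of the siRNA target Ncoa3 and the 5 regulators in 4 comparisons, and bars are 95% intervals from the limma fit without adjustment for the number of genes. The siRNA 2 minus siRNA 1 intervals include 0 for Ncoa3 and all regulators except Gbx2, whose difference did not pass over all genes (adjusted p = 0.696).

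The siRNAs gave side by side changes of -0.87 and -0.96 for Tbx3, -0.85 and -0.61 for Prdm14, -0.33 and -0.32 for Tfcp2l1, -0.27 and -0.25 for Zfp57, and -0.08 and -0.30 for Gbx2, siRNA 1 given before siRNA 2. These comparisons share the control arrays. With siRNA 1, limma called 0 of the 5 members (4 of 5 were lower at an unadjusted p under 0.05, against 6.37% of all genes; 0.0702% of all genes were called lower), and 2, Tbx3 and Prdm14, with the replicate block, where 0.963% of all genes were called lower. With siRNA 2 it called 0 of 5, as it did for 0% of all genes, and 0 with the block, where 0.11% of all genes were called lower. At an unadjusted p under 0.05, 5 of 5 were lower, against 2.99% of all genes. An unmoderated linear model also called 0 members in each comparison. All 5 lay below both control arrays with siRNA 1, as did 20.5% of all genes, and all 5 with siRNA 2, as did 19.8% of all genes. Between the siRNAs 0 members were called, and 1 was lower with siRNA 2 at an unadjusted p under 0.05, against 3.54% of all genes.

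**Figure D3:**
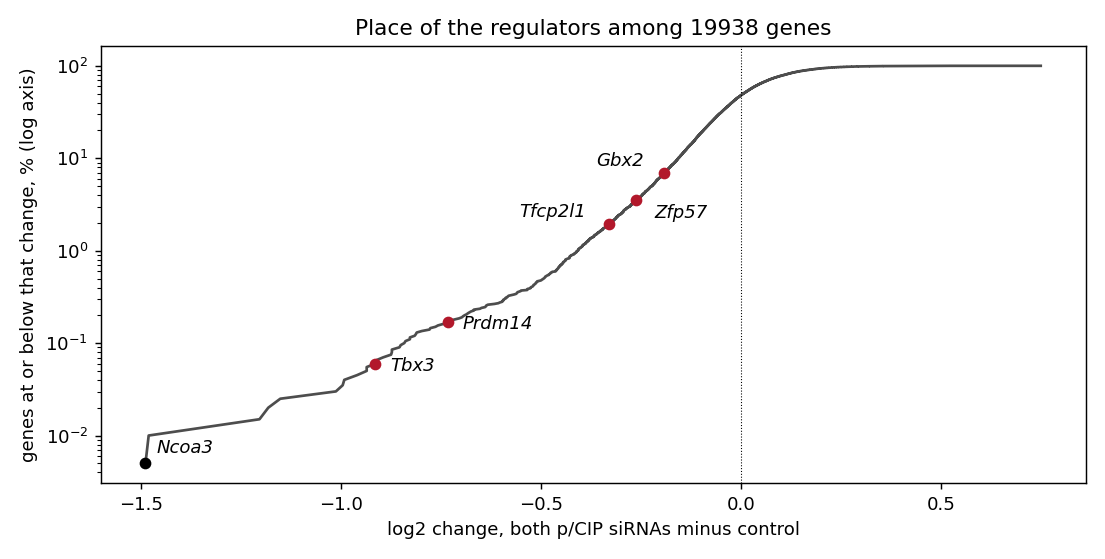
The curve gives the percentage of 19938 genes at or below each log2 change of both siRNAs minus control, on a log axis. Tbx3 and Prdm14 lie among the most lowered genes, at ranks 12 and 34, and Tfcp2l1, Zfp57 and Gbx2 at ranks 387, 697 and 1359.

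Profiles over the 6 arrays were compared by size as well as shape. Likeness was measured as the root mean square difference, in log2 units over 6 arrays, between values centred on each gene's mean and not scaled, so genes of a similar range come out near each other. Among the 5, Tfcp2l1 and Zfp57 were nearest (0.0591), followed by Gbx2 and Zfp57 (0.111) and by Tfcp2l1 and Gbx2 (0.128). Prdm14 and Gbx2 were furthest apart (0.368). Tbx3 was 0.273 from Prdm14, its nearest member.

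Of 9724 other named genes with a mean above the median gene level, the 3 nearest to Tbx3 were Kit (0.064), which encodes the receptor of stem cell factor, the hedgehog effector gene Gli2 (0.066) and the cytochrome P450 gene Cyp2b23 (0.07). Their log2 changes with both siRNAs pooled were -0.85, -0.81 and -0.89, which the choice by likeness to Tbx3 on the same arrays largely fixes. Nearest to Prdm14 were H60b (0.0552), which encodes a ligand of the NKG2D receptor, Tet2 (0.0641), which encodes a methylcytosine dioxygenase, and Lrrc34 (0.109). Tet2 read 10.28 and 9.82 with siRNA 1, 10.45 and 10.23 with siRNA 2, and 11.18 and 10.83 in control cells, with the same low second siRNA 1 array as Prdm14. The choice of Tet2 by likeness to Prdm14 on the same arrays largely fixes that pattern.

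Nanog, the homeodomain factor of the core network, followed Tfcp2l1 more closely than any other gene compared, at 0.0131. Nanog read 12.70 and 12.55 with siRNA 1, 12.71 and 12.60 with siRNA 2, and 13.05 and 12.89 in control cells. Its changes were -0.34 with siRNA 1 and -0.31 with siRNA 2, which the choice by likeness to Tfcp2l1 on the same arrays largely fixes. The next genes were Ribc1 (0.0259) and Eid2 (0.0266). Gbx2 and Zfp57 varied by less than 0.5 log2 units over all arrays (0.352 and 0.325), and no nearest genes were named for them.

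**Figure D4:**
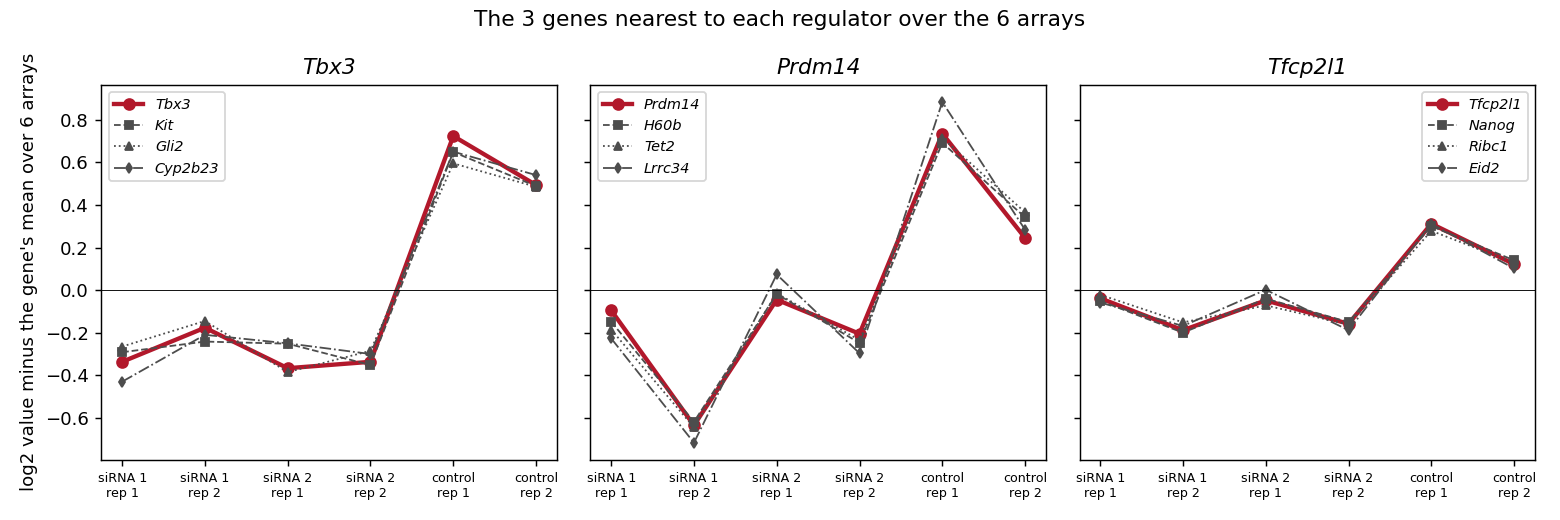
Lines join the 6 arrays of a gene after subtraction of its mean (log2 units); the regulator is in red and its 3 nearest genes are in grey. The Tfcp2l1 and Nanog lines nearly coincide, with a root mean square difference of 0.0131. The nearest genes were chosen by likeness on these same arrays.

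The naive network beyond the 5 members lay mostly below control. Its list was also chosen with earlier results of these data known. List counts and gene values here and in the following lists are for both siRNAs pooled unless 1 siRNA is named. Of 18 measured genes, 17 had means below control with both siRNAs pooled (median -0.33, beside 0.007 over all genes), and 11 lay below both control arrays on all 4 knockdown arrays, a pattern of 10.1% of all genes. Of them 1 was called lower and 0 higher, and with the replicate block 4 lower and 0 higher, where 0.311% of all genes were called lower and 0.0301% higher. The called gene was Nr0b1, an orphan nuclear receptor gene of naive cells (-0.87, adjusted p = 0.0347), and it was not called without any 1 control or siRNA 2 array. The others of smallest p, Klf4 (-0.78, adjusted p = 0.134, and 0.018 with the block), Tet2 (-0.81, adjusted p = 0.199, and 0.0212 with the block) and the orphan receptor gene Esrrb (-0.50, adjusted p = 0.186, and 0.0386 with the block), passed with the block. The mean level of the list was 10.95 to 11.11 with siRNA 1, 11.01 to 11.18 with siRNA 2 and 11.32 to 11.48 in control cells.

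Genes of the 2 branches known to act upstream of Tfcp2l1 and Gbx2 were not called without the block. In the LIF and STAT3 list 7 of 13 genes were below control (median -0.02) and 0 were called, or 1 lower with the block, which was Klf4. The LIF receptor gene Lifr read 9.62 and 9.44 with siRNA 1, 9.48 and 9.44 with siRNA 2, and 9.96 and 9.95 in control cells (-0.46, adjusted p = 0.161). Stat3 was at 0.12 (adjusted p = 0.646) and its feedback inhibitor gene Socs3 at -0.20 (adjusted p = 0.492). Socs3 had changes of -0.08 with siRNA 1 and -0.32 with siRNA 2. In the beta-catenin list 6 of 9 genes were below control (median -0.04) and 0 were called. Tcf7l1, a repressor of naive genes, was at -0.17 (adjusted p = 0.542), the target gene Axin2 at 0.07 (adjusted p = 0.835), the kinase gene Gsk3b at -0.13 (adjusted p = 0.651) and Lef1 at 0.41 (adjusted p = 0.186).

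Among partners and known targets of PRDM14, 8 of 14 genes were below control (median -0.06), with 0 called and 1, Tet2, called lower with the block. The partner gene Cbfa2t2 was at -0.26 (adjusted p = 0.488), and the Polycomb genes Mtf2 and Suz12 at -0.26 and -0.20 (adjusted p = 0.385 and 0.591). Genes that PRDM14 is known to repress, chosen for mention after their values were seen, were not called. Fgfr1 was at 0.06, Fgfr2 at -0.04, Dnmt3a at 0.01, Dnmt3b at 0.02 and Dnmt3l at 0.15, with adjusted p from 0.597 to 0.978. The median absolute change over all genes was 0.0801. Dnmt3a was at -0.13 with siRNA 1 and 0.15 with siRNA 2. Dnmt3l read 12.69 and 12.6 with siRNA 1, 12.62 and 12.66 with siRNA 2, and 12.51 and 12.47 in control cells.

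Among partners of ZFP57, 6 of 9 measured genes were below control (median -0.03) and 0 were called for both siRNAs pooled, with or without the block. With siRNA 1 alone 0 were called, and 1, Cbx3, was called lower with the block (-0.68, adjusted p = 0.124, and 0.0391 with the block). The histone methyltransferase gene Setdb1 was at -0.31 (adjusted p = 0.292), the related zinc finger gene Zfp445 at -0.18 (adjusted p = 0.513), and the heterochromatin protein genes Cbx3 and Cbx5 at -0.29 and -0.08 (adjusted p = 0.463 and 0.761). Of 34 measured imprinted genes 18 were below control (median 0.00), 0 were called, and 1 was called lower with the block, Ddc (-0.56, adjusted p = 0.193, and 0.0269 with the block), which encodes a decarboxylase. With siRNA 1 alone the block called 2 lower, Ddc (-0.63, adjusted p = 0.0261 with the block) and Nnat (-0.66, adjusted p = 0.0401 with the block). It called 0.963% of all genes lower with siRNA 1. Pooled, Nnat was at -0.39, Igf2r at 0.25 and Ascl2 at 0.30 (adjusted p = 0.302, 0.48 and 0.511).

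In the families of the members 0 relatives were called for both siRNAs pooled, with or without the block. The T-box list had 6 of 14 genes below control (median 0.04), with Eomes at 0.29 (adjusted p = 0.401), Tbx21 at 0.22 (0.543), Tbx20 at 0.20 (0.604) and Tbx5 at 0.24 (0.628). Tbx3, at -0.91, lay below all of these 14, whose lowest change was -0.14. In control cells the mean level of the T-box list was 7.34 to 7.35, under the median gene level of 7.81. Tbx3 read 10.84 and 10.61 there, so this comparison is between genes of unlike level. The CP2 list had 3 of 5 below control (median -0.04), from -0.12 for Tfcp2 to 0.02 for Grhl2. The Prdm list had 6 of 12 below control (median 0.01), from -0.17 for Mecom to 0.15 for Prdm1. Of 6 homeobox relatives of Gbx2, 2 were below control (median 0.04), with En2 at -0.27 (adjusted p = 0.543). Otx2, which acts against naive pluripotency, was at 0.33 (adjusted p = 0.339), and it read 10.20 and 10.01 with siRNA 1, 10.68 and 10.50 with siRNA 2, and 10 and 10.03 in control cells. The siRNA 2 arrays were high and the siRNA 1 arrays near control; the change was 0.09 with siRNA 1 and 0.57 with siRNA 2, and their difference of 0.48 did not pass (adjusted p = 0.424).

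Of the lists for other cell states, primed epiblast markers had 12 of 17 above control (median 0.18), with 0 called and 1 called higher with the block. That gene, the growth factor gene Fgf5, was at 0.67 (adjusted p = 0.053, and 0.0269 with the block). Fgf5 was at 0.40 with siRNA 1 and 0.93 with siRNA 2 (adjusted p = 0.187 and 0.0906, and 0.0689 and 0.048 with the block). Lefty1, at 0.51 pooled (adjusted p = 0.199), was at 0.22 with siRNA 1 and 0.81 with siRNA 2 (0.181 and 0.0484 with the block). Zic5, at -0.31 pooled (adjusted p = 0.257), was at -0.48 with siRNA 1 and -0.13 with siRNA 2 (0.0476 and 0.613 with the block). The block thus called Fgf5 and Lefty1 higher with siRNA 2 and Zic5 lower with siRNA 1. Their differences between siRNA 2 and siRNA 1 did not pass (adjusted p = 0.31, 0.411 and 0.472). With the block 0.963% of all genes were called lower with siRNA 1. The shares of all genes called higher with 1 siRNA and the block are not given here, so such calls have no background beside them. Lef1 was at 0.41 pooled (adjusted p = 0.186). Primitive endoderm markers had 14 of 15 above control (median 0.14) and 0 called. With siRNA 1, 14 of 15 were above (median 0.20), and with siRNA 2, 11 of 15 (median 0.06). On all 4 knockdown arrays together, 0 of them read above both control arrays. Their mean level was 7.96 to 8.46 with siRNA 1, 7.93 to 8.23 with siRNA 2 and 7.81 to 8.20 in control cells. With siRNA 1 alone the block called 1 of them higher, Lamb1 (0.47, adjusted p = 0.426, and 0.0439 with the block). Primordial germ cell markers had 6 of 12 below control (median 0.00) with 1 called lower, Kit. Trophoblast markers had 9 of 10 above control (median 0.09), with 9 of 10 above for siRNA 1 (median 0.24) and 5 of 10 for siRNA 2 (median -0.03). Neural and mesoderm markers had 5 of 9 above control (median 0.01) and fibroblast feeder markers 6 of 9 (median 0.07). In each of these 3 lists 0 were called for both siRNAs pooled, with or without the block. The mean feeder level was 7.50 to 7.69 with siRNA 1, 7.60 to 7.65 with siRNA 2 and 7.52 to 7.60 in control cells. The part of other cell types in the member changes was not tested.

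**Figure D5:**
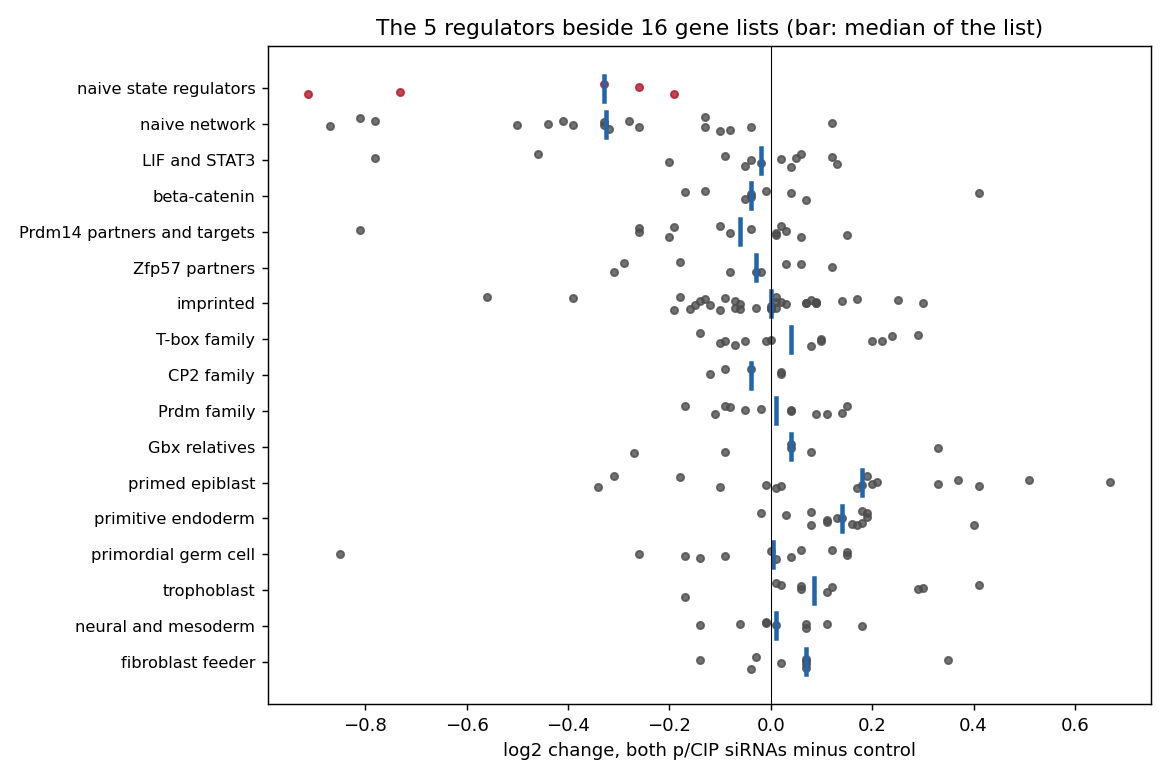
Points are log2 changes of single genes for both p/CIP siRNAs minus control, in the 5 regulators and 16 gene lists, and bars are list medians. The regulators and the naive network share a median of -0.33, and the other medians run from -0.06 to 0.18.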

How the data were processed

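Expression was measured on 6 arrays. The deposited table holds 1 value for each of 35556 probe sets, taken as log2 from their range, since the authors' scale is not stated. Another base would alter folds but not tests. The submitters' processing notes list Partek without a version, and how background, summarization and normalization were handled is not stated in them. The number of arrays limits the precision.

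GEO's platform annotation gave 1 symbol for 21789 probe sets, several for 1621, left unnamed, and none for 12146. The brightest probe set stood for each of 999 genes with more than 1, which left 19938 genes; 0 symbols needed updating. All 6 arrays were fitted together in limma 3.58.1 under R 4.3.3 (lmFit, eBayes, 3 residual and 3.84 prior degrees of freedom), with two-sided tests, Benjamini-Hochberg adjustment over all genes and a threshold of 0.05. Every adjusted p is limma's. The fit was run on simulated arrays drawn independently of each other, and the condition checked was that mean estimated changes lay near the known ones. That check does not cover the calls or the adjusted p. Promoter windows are RefSeq's, and figures were drawn with matplotlib 3.10.9.

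Deviations from group means correlated between arrays of the same replicate number across genes at 0.464 for siRNA 1 and control, 0.407 for siRNA 2 and control and 0.461 for siRNA 2 and siRNA 1. The numbers were therefore taken as a possible pairing of the arrays, from the data and not from the labels. The main fit had no block, so its intervals and adjusted p do not use that pairing. The pairing check is weak with 2 arrays a group. Named genes were the members, Ncoa3, the 3 nearest genes of a member that varied by 0.5 or more, and genes from the 16 lists. The rule for each list was the called genes and the 4 of smallest p, but not all of these are mentioned. Fgfr1, Fgfr2, Dnmt3a, Dnmt3b and Dnmt3l were named outside this rule. Members and lists were chosen with earlier results of these data known. Alternatives were the replicate or array code as a block, other normalizations, a filter on dim genes, all probe sets, other variance models and leaving out each array.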

Additional observations from a re-analysis of the deposited data

How the results depend on the processing

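The 335 values of single members under alternatives kept their direction except 8, all between the siRNAs and near 0. For Tfcp2l1, siRNA 2 minus siRNA 1 became -0.02 after quantile normalization, -0.03 after cyclic loess, and -0.06 to 0.08 with 1 array left out. For Zfp57 it became -0.01 and -0.02 after those normalizations, and -0.01 to 0.06 with 1 array left out. For Prdm14 it was -0.03 to 0.51 with 1 array left out. The cause was not tested.

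For both siRNAs pooled, the 1 member called, Tbx3, became 0 with the array code as a block (adjusted p = 0.167), with all 35556 probe sets tested (0.236), and in an unmoderated linear model (0.391). It was 0 to 1 with 1 array left out, and 1 with the replicate block. For siRNA 1 the 0 members called became 2 with the replicate block, 1 with array medians aligned, 1 with dim genes left out, 1 with trend and robust variance, and 0 to 2 with 1 array left out. For siRNA 2 the 0 became 1 with dim genes left out, with trend and robust variance and with only the groups compared, and 0 to 1 with 1 array left out. These calls were Tbx3, joined by Prdm14 where 2 members were called. For a single siRNA, the share of all genes called under an alternative is given only for the replicate block. It was 0.963% lower with siRNA 1 and 0.11% lower with siRNA 2. The member counts under the other alternatives have no such background beside them. Between the siRNAs it stayed 0 under all alternatives. Where 1 array of a group was left, it was assumed to vary like the other groups. Over the gene lists, 2 genes called for both siRNAs pooled (Nr0b1 and Kit) became 7 with the replicate block, 5 with trend and robust variance, 0 with the array code as a block, with all probe sets tested or unmoderated, and 0 to 3 with 1 array left out. Over all genes the 14 lower and 0 higher calls became 62 and 6 with the replicate block, 57 and 14 with trend and robust variance, 32 and 6 with dim genes left out, 15 and 1 after quantile normalization, 16 and 1 after cyclic loess, 0 with the array code as a block, with all probe sets or unmoderated, and 0 to 34 lower with 1 array left out. The replicate block changed no other member's call. With 2 arrays a group, the spread between arrays and not a depth limits these values.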

Other observations

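Cbx3, a ZFP57 partner gene, and the imprinted gene Nnat had low values with siRNA 1 and values near control with siRNA 2. Against control, siRNA 1 gave -0.68 for Cbx3 (limma adjusted p = 0.124, and 0.0391 with the replicate block) and -0.66 for Nnat (0.136, and 0.0401 with the block). The block thus calls both lower, as it does 0.963% of all genes with siRNA 1. Cbx3 read 10.76 and 10.46 with siRNA 1, 11.41 and 11.36 with siRNA 2, and 11.29 and 11.28 in control cells. Its difference of 0.78 between siRNA 2 and siRNA 1 did not pass over all genes (limma adjusted p = 0.241). Nnat read 10.21 and 10.19 with siRNA 1, 10.68 and 10.80 with siRNA 2, and 10.72 and 10.99 in control cells, and the difference between siRNA 2 and siRNA 1 was 0.54 (adjusted p = 0.424).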
